A study of Mus musculus with 16 samples.

Results

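Mouse rhabdoid tumors that grew inside the central nervous system (intra-CNS, n = 5) were compared with rhabdoid tumors that grew outside the skull (extracranial, n = 5). These 10 tumors were chosen by the tumor location in the sample labels, out of 16 tumors sequenced, and the other 6 lay inside the skull but outside the brain tissue (intracranial extra-CNS), in mice 52 to 170 days old given tamoxifen on embryonic day 8 (4 mice), 7 (29225D) or 6 (R26P170). All the mice carried the genotype Smarcb1flox/flox;R26-CreERT2, in which tamoxifen switches on a Cre recombinase expressed in every cell type to delete Smarcb1, so by genotype the comparison has no group with an intact gene. Each mouse gave 1 tumor, and frozen tumor pieces were dissected by eye, so every value is of tumor cells together with the tissue around them. The question was how tumors begun by loss of the same gene differ with the place in which they grew. The study's own classification calls the intra-CNS tumors Shh and the extracranial tumors Myc, and since those names were drawn from the expression of the same tumors, the genes behind them are described here and are not independent evidence for the split.

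Values are given throughout in 1 order of tumors. The intra-CNS tumors came from the mice 29048 (45 days old), 38594A (30 days), 29050A (180 days), R26P98 (98 days) and R26P87 (87 days), and each had received tamoxifen on embryonic day 6. The extracranial tumors came from the back of mouse 43825B (210 days, tamoxifen on embryonic day 6), the jaw of 43987A (80 days), the nose of 43990A (90 days), the mouth of 43998A (84 days) and the jaw of R26P123 (123 days), and the last 4 had received tamoxifen on embryonic day 8. For those 4 tumors the day of tamoxifen and the site cannot be told apart. A supplementary list of the study gives the nose tumor as intracranial, and the label was followed. Polyadenylated RNA was sequenced, with 21703251 to 67455067 read pairs counted on genes in the 10 tumors. Levels are in TPM (transcripts per 1000000, that is read counts scaled by transcript length and then by the total), and fold changes are log2 values of intra-CNS over extracranial from read counts, so a positive value is a higher level in the intra-CNS tumors.

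Several tumors stood apart and bear on single results. The tumor of 29048 held myelin and choroid plexus transcripts, with 6950 TPM summed over 10 oligodendrocyte markers against 49.3 to 181 TPM in the other intra-CNS tumors, and a lower level of the proliferation marker Mki67 (12.3, 49.1, 42.9, 64.9 and 57 TPM in the 5 tumors). The jaw tumor of R26P123 held 2219 TPM summed over 11 skin and oral epithelium markers, against 10.5 to 18.2 TPM in the other extracranial tumors. The back tumor was the only extracranial tumor with strong expression of many Hoxa genes. Transcripts of the Y chromosome were above a trace in the nose tumor and in R26P98 only, and Xist, the noncoding RNA of the inactive X chromosome, was near 0 in the same pair.

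Smarcb1 (chr10:75896769-75921617, mm10), the deleted gene, stood at 58.1, 3.99, 9.91, 4.48 and 7.08 TPM in intra-CNS and 26.1, 12.2, 8.63, 22.1 and 18.5 TPM in extracranial tumors. It did not differ between the sites by edgeR's quasi-likelihood test (log2 fold change -0.59 ± 0.76 (SE), adjusted p = 0.56). The tumor of 29048 was the highest of the 10, and without it the log2 fold change was -1.97 with an adjusted p of 0.013. Reads were counted over the whole gene, so a transcript that lacks only the deleted exons would be counted too, and the level alone does not check the deletion.

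Smarcb1 encodes a core subunit of SWI/SNF, a complex that moves nucleosomes and opens enhancers against Polycomb repression. Hedgehog ligands act through the receptor Ptch1 and the Gli factors to pattern the ventral neural tube, and Notch signaling between neighbouring progenitors keeps part of them undifferentiated through the Hes repressors. The Myc family member Mycn is used mainly by embryonic neural progenitors, and Myc itself by many dividing tissues. Cranial mesenchyme, from neural crest and mesoderm, forms the skull, jaw and meninges and lays down fibrillar collagen.

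Promoters of 3 genes whose levels did not overlap between the sites, each from another gene list, are shown, as the 250 bases before the transcription start in RefSeq's annotation of GRCm38.p6, 5′ to 3′ on the plus strand. Capitals mark the letters found, searched on both strands. Hes5, a Notch target (chr4:154960673-154960922), holds TGGGAA, the core of the motif bound by the Notch effector Rbpj, at 226 (read on the opposite strand) and 82 bases before the start. Gsx1, a ganglionic eminence factor (chr5:147188446-147188695), holds TTCAGCACC, the left part of the RE1 element bound by the repressor Rest, at 20 bases before the start. B2m, the light chain of MHC class I (chr2:122147437-122147686), holds GAAANNGAAA, the core of the interferon-stimulated response element, at 139 bases before the start.
Hes5: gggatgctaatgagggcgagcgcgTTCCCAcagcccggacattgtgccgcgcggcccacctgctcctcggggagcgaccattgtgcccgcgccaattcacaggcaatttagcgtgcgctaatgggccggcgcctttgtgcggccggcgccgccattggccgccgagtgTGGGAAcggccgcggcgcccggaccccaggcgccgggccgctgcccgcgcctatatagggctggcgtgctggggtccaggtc
Gsx1: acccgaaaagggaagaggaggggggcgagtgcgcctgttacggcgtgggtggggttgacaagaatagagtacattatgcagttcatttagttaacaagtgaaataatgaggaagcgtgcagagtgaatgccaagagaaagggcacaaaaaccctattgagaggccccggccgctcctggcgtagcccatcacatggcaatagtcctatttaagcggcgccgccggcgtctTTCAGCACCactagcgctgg
B2m: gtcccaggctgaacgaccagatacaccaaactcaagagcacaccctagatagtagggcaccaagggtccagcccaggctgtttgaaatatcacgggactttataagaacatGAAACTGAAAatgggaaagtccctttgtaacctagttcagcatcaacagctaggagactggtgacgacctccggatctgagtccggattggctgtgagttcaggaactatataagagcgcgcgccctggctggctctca
Of 32851 promoter windows of the same length, 21.6% held TGGGAA, 0.301% held TTCAGCACC and 2.98% held GAAANNGAAA. In the gene lists used below, TGGGAA was in 5 of 19 windows of Notch pathway genes and in 5 of 8 of MHC class I genes, with the unmarked one of B2m among them, TTCAGCACC in 1 of 25 windows of ventral forebrain factors and GAAANNGAAA in 1 of 8 windows of MHC class I genes. A match describes the letters only, and these patterns were picked for display from 13 after the scan.

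Of 21458 genes tested, 5624 (26.2%) differed between the sites at an adjusted p under 0.05 and more than a 2-fold change, 2894 (13.5%) higher and 2730 (12.7%) lower in intra-CNS tumors. Such genes are said below to have passed the test, and the share of each gene list that passed stands against these shares. Normalized counts of the groups did not overlap for 4937 genes (23.0%), with 2645 higher (12.3%) and 2292 lower (10.7%), and 3776 of these also passed the test. Overlap of single genes below is that of the TPM values unless normalized counts are named. Of 18422 protein-coding genes, 2576 were higher and 2535 lower, while of 847 long intergenic noncoding RNAs 109 were higher and 57 lower. On the log2(TPM + 1) scale the median of all genes moved to 0.21 from -0.02 in the count fit, and limma's test then called 3821 genes higher and 1303 lower. TPM therefore sits higher in intra-CNS tumors than the fold changes for genes of middling level, and directions below are those of the count fit. In bulk tumors, fewer cells of a type and less RNA per cell cannot be told apart, for any gene below.

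Among the genes with the highest fold changes, Sox1ot, a noncoding transcript over Sox1 on the same strand, stood at 21.2, 132, 72.7, 55.9 and 213 TPM in the intra-CNS tumors and had no count in any extracranial tumor, at least 9613-fold higher against a floor of 3 counts over the group. Crb1, which sets the apical side of neuroepithelial cells, stood at 4.99, 18.9, 36.4, 19 and 30.2 TPM and was also without a count in the extracranial tumors, at least 2411-fold higher. Both were thus confined, at this depth, to intra-CNS tumors among these 10. Rfx4, a factor for cilia of the developing brain, stood at 53.8, 110, 191, 123 and 486 TPM in intra-CNS and 0, 0, 0.0179, 0 and 0 TPM in extracranial tumors (log2 fold change 14.68 ± 1.04 (SE), adjusted p = 5.1e-05). Cnpy1, a gene of the midbrain-hindbrain boundary, stood at 134, 228, 438, 548 and 43.2 TPM in intra-CNS and 0.0273, 0.0117, 0, 0 and 0 TPM in extracranial tumors (log2 fold change 14.41 ± 1.12 (SE), adjusted p = 7.8e-05). The groups were far apart for both, and 1 or 2 extracranial tumors held a trace.

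At the other end, Mmp9, a gelatinase made by macrophages and osteoclasts, stood at 1.58, 1.57, 1.19, 2.72 and 0.209 TPM in intra-CNS and 446, 285, 17.3, 8412 and 1130 TPM in extracranial tumors (log2 fold change -11.04 ± 1.85 (SE), adjusted p = 0.002). Ang2, an angiogenin of the ribonuclease family, stood at 0, 0, 0.178, 0 and 0 TPM in intra-CNS and 1192, 47.9, 1.67, 79.4 and 75.9 TPM in extracranial tumors (log2 fold change -12.21 ± 2.05 (SE), adjusted p = 0.002), and the related angiogenin genes may share reads with it. Aqp5, a water channel of secretory glands, stood at 0, 0.727, 0.578, 0.714 and 0.143 TPM in intra-CNS and 782, 273, 4.56, 838 and 819 TPM in extracranial tumors (log2 fold change -10.77 ± 1.52 (SE), adjusted p = 0.00086). The groups did not overlap for these 3 genes, and the nose tumor was the lowest extracranial tumor in each. Qrfp, a neuropeptide precursor, had a log2 fold change of -12.18, and Urml, at 0.331, 397, 0.23, 0.654 and 0.943 TPM in the extracranial tumors, owed its log2 fold change of -10.93 to the jaw tumor of 43987A, without which it was -3.57 (adjusted p = 0.051).

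The 5 most abundant genes called in each direction were examined. Tuba1a, the alpha tubulin of growing neurons, stood at 2032, 4287, 1995, 2170 and 2485 TPM in intra-CNS and 698, 639, 567, 578 and 640 TPM in extracranial tumors (log2 fold change 1.55 ± 0.25 (SE), adjusted p = 0.0015). Stmn1, a tubulin-binding protein of dividing and neural cells, stood at 984, 1589, 2428, 1339 and 1115 TPM in intra-CNS and 167, 146, 636, 159 and 134 TPM in extracranial tumors (log2 fold change 2.12 ± 0.48 (SE), adjusted p = 0.0079). Every intra-CNS tumor lay above every extracranial tumor for both. Fabp7, a fatty acid carrier of radial glia, stood at 1375, 2848, 1823, 1790 and 748 TPM in intra-CNS and 0.413, 0.294, 0.287, 21.4 and 3.17 TPM in extracranial tumors (log2 fold change 7.82 ± 1.43 (SE), adjusted p = 0.0031), with the mouth tumor the highest extracranial tumor. Gstm1, a glutathione transferase, and Ndfip1, an adaptor of ubiquitin ligases, were also higher (log2 fold changes 2.70 and 1.44). Among abundant genes lower in intra-CNS tumors, Mgp, an inhibitor of calcification, stood at 87, 105, 189, 171 and 42.1 TPM in intra-CNS and 573, 33706, 7374, 6143 and 6330 TPM in extracranial tumors (log2 fold change -7.02 ± 1.07 (SE), adjusted p = 0.0012). Lgals1, a galectin of mesenchyme, stood at 121, 124, 61, 98.6 and 63.2 TPM in intra-CNS and 7567, 5562, 330, 4751 and 8800 TPM in extracranial tumors (log2 fold change -6.37 ± 0.80 (SE), adjusted p = 0.00052). For Mgp and Lgals1 the groups did not overlap. Vim, the intermediate filament of mesenchyme and of radial glia, had a log2 fold change of -2.05, adjusted p = 0.038, with the nose tumor below every intra-CNS tumor. Its call was lost on leaving out any 1 tumor but the back tumor, the nose tumor or R26P98 (adjusted p of 0.063 to 0.083). Tpt1, the translationally controlled tumor protein, was lower as well (-1.47, adjusted p = 0.0036), and Rplp1, a ribosomal stalk protein, was lower by little more than the fold threshold (-1.06, adjusted p = 0.016), under it without 29048 (-0.97) or the nose tumor (-0.94).

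Expression of the Myc family divided by site. Mycn (chr12:12936093-12941914), used by embryonic neural progenitors, stood at 34.4, 112, 327, 279 and 377 TPM in intra-CNS and 0.808, 1.4, 2.47, 0.427 and 0.794 TPM in extracranial tumors (log2 fold change 7.10 ± 0.80 (SE), adjusted p = 0.00034). Mycl (chr4:122995652-123002485), another member of the family, stood at 35.5, 71, 72.2, 76 and 85.9 TPM in intra-CNS and 1.14, 0.599, 1.65, 1.66 and 1.63 TPM in extracranial tumors (log2 fold change 5.18 ± 0.37 (SE), adjusted p = 5.5e-05). Myc (chr15:61985391-61990374) stood at 13.8, 28.4, 9.31, 12.4 and 28.8 TPM in intra-CNS and 87, 130, 203, 94.2 and 193 TPM in extracranial tumors (log2 fold change -3.42 ± 0.39 (SE), adjusted p = 0.00036). The groups did not overlap for any of the 3 genes, and Mycn and Mycl were high where Myc was low. Of the 11 genes of the Myc network, these were the only ones to pass the test. Max, the common partner of all 3 proteins, stood at 99, 90.9, 98.2, 83.6 and 91.1 TPM in intra-CNS and 89.1, 92.9, 99.9, 80.4 and 81.4 TPM in extracranial tumors (log2 fold change -0.44 ± 0.12 (SE), adjusted p = 0.02), past the adjusted p and below the fold threshold. Of 18 ribosome biogenesis genes, classical Myc targets, none passed the test by edgeR (median log2 fold change -0.50, 17 of 18 negative), 7 had an unadjusted p under 0.05, and DESeq2's Wald test called 0. Npm1, the nucleolar chaperone, stood at 517, 834, 1199, 969 and 1080 TPM in intra-CNS and 841, 918, 1647, 916 and 885 TPM in extracranial tumors (log2 fold change -0.67 ± 0.27 (SE), adjusted p = 0.083), with overlap of the groups.

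Hedgehog pathway genes were higher in intra-CNS tumors for 4 of 14 members, and none was lower (median log2 fold change 1.27, beside -0.02 over all genes tested). The share of all genes called higher was 13.5%, and 7 of the 14 were higher by DESeq2 and 8 by limma on log2(TPM + 1). The ligand Shh (chr5:28456815-28467256) stood at 25, 24.5, 2.72, 81.9 and 8.13 TPM in intra-CNS and 0, 0.0839, 0.109, 0 and 0.24 TPM in extracranial tumors (log2 fold change 7.81 ± 1.28 (SE), adjusted p = 0.0018). Each intra-CNS tumor lay above each extracranial tumor, and among the former 29050A was the lowest and R26P98 the highest. Ptch1, the receptor and itself a target of the pathway, stood at 91.5, 212, 152, 372 and 122 TPM in intra-CNS and 56.1, 9.56, 25.3, 11.9 and 15.5 TPM in extracranial tumors (log2 fold change 2.51 ± 0.57 (SE), adjusted p = 0.0083). Hhip, a decoy that binds the ligand, stood at 30.5, 12, 1.45, 21.3 and 9.8 TPM in intra-CNS and 0.162, 0.133, 0.104, 0.0244 and 0.227 TPM in extracranial tumors (log2 fold change 6.36 ± 0.87 (SE), adjusted p = 0.00075). Neither Ptch1 nor Hhip overlapped between the groups, although the back tumor came within 2-fold of the lowest intra-CNS tumor for Ptch1.

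The effectors of the pathway did not pass the test. Gli1, a direct target often read as a measure of pathway activity, stood at 32.6, 66.7, 24.3, 131 and 17.7 TPM in intra-CNS and 50.5, 21.9, 73, 22.8 and 25.8 TPM in extracranial tumors (log2 fold change 0.01 ± 0.57 (SE), adjusted p = 0.99). The groups overlapped over most of their range. Gli2, the main activator, stood at 14.3, 28.8, 55.2, 68.2 and 76.4 TPM in intra-CNS and 0.266, 4.1, 18.5, 0.176 and 1.02 TPM in extracranial tumors (log2 fold change 2.90 ± 1.15 (SE), adjusted p = 0.077), and the nose tumor lay above the lowest intra-CNS tumor. Without the nose tumor the log2 fold change of Gli2 was 4.56 with an adjusted p of 0.0094, and DESeq2 called it with all tumors (2.92, adjusted p = 0.013). Smo, the signal transducer, stood at 65.8, 112, 167, 359 and 196 TPM in intra-CNS and 32.6, 73.9, 141, 49.8 and 79.7 TPM in extracranial tumors (log2 fold change 0.79 ± 0.48 (SE), adjusted p = 0.22). Gas1, a co-receptor, was the 1 member with a negative log2 fold change (-2.22, adjusted p = 0.13), and the 2 groups overlapped. In the fit of tumors given tamoxifen on embryonic day 6 alone, with 5 intra-CNS tumors and the back tumor, Shh, Ptch1 and Hhip lost their calls (adjusted p of 0.077, 0.4 and 0.091). In that fit the single back tumor is assumed to vary like the intra-CNS tumors.

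Notch pathway genes were higher in intra-CNS tumors for 10 of 20 members and lower for 1 (median log2 fold change 1.36), beside 13.5% and 12.7% of all genes. Among ligands, Dll1, which activates the receptor on neighbouring progenitors, stood at 29.6, 63.4, 107, 53.7 and 224 TPM in intra-CNS and 1.62, 2.27, 1.32, 0.496 and 1.66 TPM in extracranial tumors (log2 fold change 5.52 ± 0.65 (SE), adjusted p = 0.0004). Dll3, which acts inside the same cell, stood at 16, 31.9, 26.7, 18.1 and 105 TPM in intra-CNS and 0.145, 0.124, 0.135, 0 and 0.197 TPM in extracranial tumors (log2 fold change 7.83 ± 0.90 (SE), adjusted p = 0.00036). Jag2, a ligand of another family, had a log2 fold change of 1.82, adjusted p = 0.019. No overlap was seen for these ligands, and R26P87 held the highest Dll1 and Dll3. None of the 4 receptors passed the test by edgeR, 0 had an unadjusted p under 0.05 and DESeq2 called 0. Notch1 stood at 30.7, 20.3, 5.89, 9.58 and 60.2 TPM in intra-CNS and 8.84, 13.7, 15.6, 3 and 9.83 TPM in extracranial tumors (log2 fold change 0.83 ± 0.61 (SE), adjusted p = 0.31). Notch2, with the highest mean TPM of the receptors, stood at 23.8, 106, 177, 184 and 338 TPM in intra-CNS and 26.7, 72.1, 40.3, 32.5 and 157 TPM in extracranial tumors (log2 fold change 0.85 ± 0.66 (SE), adjusted p = 0.33). Overlap was wide for both receptors, and Notch3 (1.53, adjusted p = 0.12) passed without the mouth tumor (adjusted p = 0.013) and on the log2(TPM + 1) scale by limma (adjusted p = 0.025).

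Targets and modifiers held 7 of the higher members. Hes5 (chr4:154960923-154962371), a repressor that keeps neural progenitors undifferentiated and whose promoter is shown above, stood at 46.5, 85.4, 159, 125 and 81.4 TPM in intra-CNS and 0, 0.0352, 0.0573, 0.116 and 0 TPM in extracranial tumors (log2 fold change 10.49 ± 0.74 (SE), adjusted p = 5.1e-05), on 4 counts in all over the 5 extracranial tumors. Nrarp, a feedback inhibitor of Notch, stood at 41.7, 77.4, 60, 71.1 and 225 TPM in intra-CNS and 6.23, 10.3, 7.51, 2.84 and 8.25 TPM in extracranial tumors (log2 fold change 3.26 ± 0.51 (SE), adjusted p = 0.0014). Hey2, a repressor of the same family as Hes5, stood at 9.16, 2.48, 10.7, 10.9 and 7.39 TPM in intra-CNS and 0.248, 0.831, 0.403, 0.146 and 0.505 TPM in extracranial tumors (log2 fold change 3.74 ± 0.61 (SE), adjusted p = 0.0017). For each of these 3 genes the groups were apart. Hes6, an inhibitor of Hes1, had a log2 fold change of 2.45, adjusted p = 0.0021, and Hes1 itself one of 1.52, adjusted p = 0.02. Rfng, which adds sugars to the receptors, had a log2 fold change of 1.41, adjusted p = 0.012. Rbpj, the DNA-binding effector, was the member that was lower, at 28, 46.8, 48.5, 44.8 and 64.9 TPM in intra-CNS and 225, 172, 40.7, 164 and 221 TPM in extracranial tumors (log2 fold change -2.34 ± 0.43 (SE), adjusted p = 0.0032). The nose tumor lay within the intra-CNS range for Rbpj, and the other 4 extracranial tumors lay above it. With tamoxifen on embryonic day 6 alone, 2 members were higher and 1 lower.

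**Figure D1:**
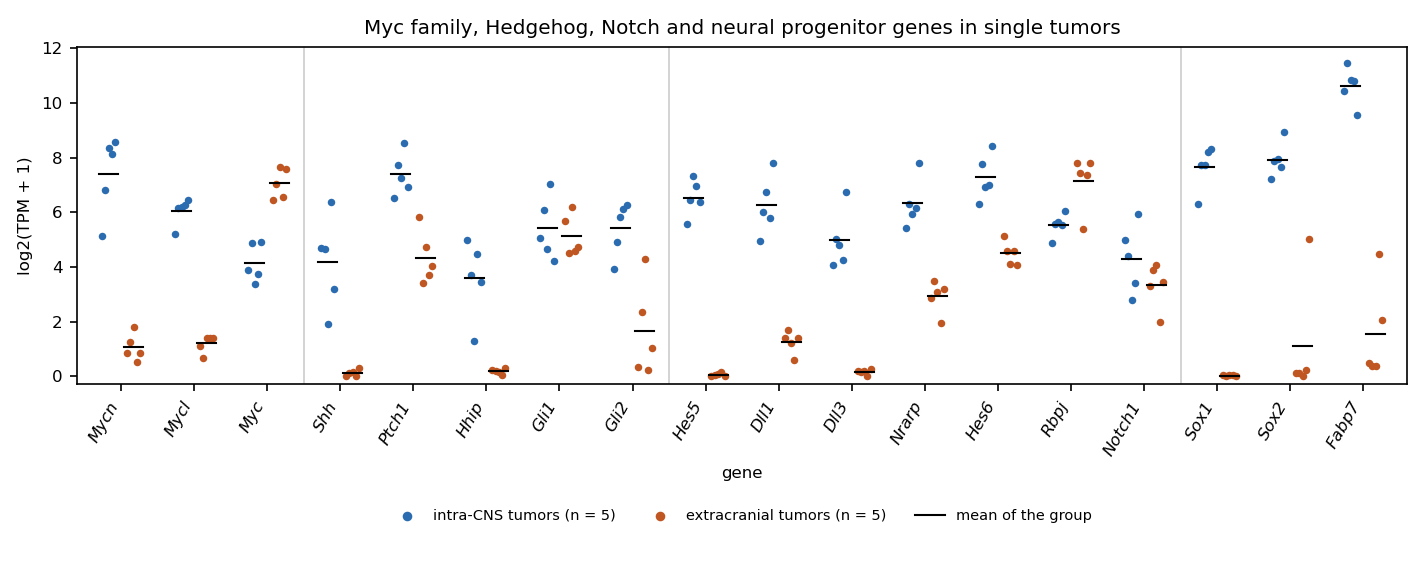
Levels of 18 regulators in single tumors as log2(TPM + 1) on the vertical axis, with genes along the horizontal axis, blue points for the 5 intra-CNS tumors, orange points for the 5 extracranial tumors and black lines for group means. Mycn, Mycl, Shh, Hes5, Dll1 and Sox1 separate the groups, Myc separates them in the opposite direction, and Gli1 and Notch1 overlap, while 1 extracranial tumor stands alone in Sox2 at 5.03.

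Neural stem and progenitor genes were higher in intra-CNS tumors for 12 of 15 members, with none lower (median log2 fold change 6.02). Sox1 (chr8:12395295-12400126), an early neuroectoderm factor, stood at 78, 213, 209, 293 and 318 TPM in intra-CNS and 0.026, 0, 0.0361, 0.0183 and 0 TPM in extracranial tumors (log2 fold change 13.27 ± 0.79 (SE), adjusted p = 3.9e-05). The extracranial tumors held 4 counts in all. Sox2 (chr3:34650405-34652461), a factor of neural and other stem cells, stood at 148, 234, 245, 201 and 492 TPM in intra-CNS and 0.085, 0.0908, 0, 0.18 and 31.8 TPM in extracranial tumors (log2 fold change 4.91 ± 1.82 (SE), adjusted p = 0.062). Among extracranial tumors only the jaw tumor of R26P123 was above 1 TPM, and without it the log2 fold change of Sox2 was 10.94 with an adjusted p of 0.00026. The same tumor held the epithelial keratins, and Sox2 is also a gene of oral epithelium. Their part in the Sox2 level was not tested. Neurog2, a proneural factor of excitatory lineages, stood at 27.1, 43.5, 2.93, 7.52 and 87.8 TPM in intra-CNS and 0, 0.0201, 0, 0 and 0.0958 TPM in extracranial tumors (log2 fold change 9.75 ± 1.34 (SE), adjusted p = 0.00078). Every intra-CNS tumor exceeded every extracranial tumor for Neurog2. Olig1, a factor of oligodendrocyte precursors and ventral progenitors, stood at 171, 4.41, 9.43, 4.85 and 13.2 TPM in intra-CNS and 0, 0, 0, 0 and 0.0327 TPM in extracranial tumors (log2 fold change 11.52 ± 1.74 (SE), adjusted p = 0.0012), highest in the myelin-rich tumor of 29048. Nr2e1, a nuclear receptor of neural stem cells, had a log2 fold change of 9.65, adjusted p = 0.00077. Nes, an intermediate filament of progenitors and of mesenchyme, stood at 35, 100, 81.1, 45.9 and 79.2 TPM in intra-CNS and 37.3, 126, 15.2, 15 and 23.4 TPM in extracranial tumors (log2 fold change 0.13 ± 0.61 (SE), adjusted p = 0.89), with full overlap. Without 29048 the count was 12 of 15, without 29048 and the back tumor 9 of 15, and in the fit of tumors given tamoxifen on embryonic day 6 it was 5 of 15.

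Regional identity was examined with factors of the ventral forebrain, of which 7 of 19 were higher and 1 lower in intra-CNS tumors (median log2 fold change 3.93), beside 13.5% and 12.7% of all genes. Gsx1 (chr5:147188696-147190947), a factor of the ganglionic eminences and hypothalamus, stood at 11.3, 69.6, 67.1, 42.3 and 858 TPM in intra-CNS and 0, 0.0505, 0, 0 and 0.441 TPM in extracranial tumors (log2 fold change 10.47 ± 1.75 (SE), adjusted p = 0.0019). Vax1, a factor of the ventral forebrain midline, stood at 23.4, 126, 17.3, 40.6 and 84.2 TPM in intra-CNS and 0.0386, 0.0494, 0.0268, 0.0272 and 0 TPM in extracranial tumors (log2 fold change 10.31 ± 0.87 (SE), adjusted p = 0.0001). Sp9, a zinc finger factor of ganglionic eminence progenitors, stood at 20.3, 65, 19.9, 87.7 and 173 TPM in intra-CNS and 0, 0.0477, 0.207, 0 and 0.177 TPM in extracranial tumors (log2 fold change 9.19 ± 1.11 (SE), adjusted p = 0.00046). These 3 genes separated the groups, with R26P87 the highest for Gsx1 and Sp9. Nkx2-1, the factor of the medial ganglionic eminence and hypothalamus, had a log2 fold change of 8.35, adjusted p = 0.00099. Dlx1, a factor of inhibitory neuron progenitors and of the jaw, stood at 25.4, 329, 84, 119 and 176 TPM in intra-CNS and 0.302, 29.2, 0.341, 23.1 and 28.3 TPM in extracranial tumors (log2 fold change 2.64 ± 1.18 (SE), adjusted p = 0.11). Dlx2, its neighbour in the genome, stood at 12.6, 115, 44.6, 96.9 and 121 TPM in intra-CNS and 0.806, 23.9, 0.295, 20.7 and 36.3 TPM in extracranial tumors (log2 fold change 1.74 ± 1.08 (SE), adjusted p = 0.23). For both Dlx genes the jaw and mouth tumors held 20.7 to 36.3 TPM, while the back and nose tumors were under 1 TPM. Lhx8, a factor of cholinergic neurons and of tooth-forming jaw mesenchyme, was lower in intra-CNS tumors at 0.215, 0.407, 0.0789, 0.0561 and 0.112 TPM in intra-CNS and 60.8, 58.9, 0.185, 164 and 262 TPM in extracranial tumors (log2 fold change -9.78 ± 1.57 (SE), adjusted p = 0.0016). The nose tumor was at the intra-CNS level for Lhx8 and the other 4 extracranial tumors were above it.

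Factors of the midbrain-hindbrain boundary, the organizer between those parts of the neural tube, were higher for 6 of 16 members and lower for none (median log2 fold change 2.41), beside 13.5% of all genes called higher. The count was 4 by DESeq2 and 2 in the fit of tumors given tamoxifen on embryonic day 6. En2 (chr5:28165694-28172166), a homeobox factor of the boundary, stood at 40.4, 81.9, 145, 268 and 29.7 TPM in intra-CNS and 0.177, 0.0126, 0.0615, 0 and 0 TPM in extracranial tumors (log2 fold change 10.83 ± 1.19 (SE), adjusted p = 0.0003). Otx2 (chr14:48657677-48673819), a factor of forebrain and midbrain, stood at 112, 113, 243, 226 and 341 TPM in intra-CNS and 0.0389, 0, 0.704, 0.0275 and 0 TPM in extracranial tumors (log2 fold change 9.94 ± 1.29 (SE), adjusted p = 0.00062). Both genes were apart between the groups by a wide margin. Fgf8, the organizer's secreted signal, stood at 3.03, 2.38, 0.414, 34.2 and 103 TPM in intra-CNS and 0, 0.102, 0.111, 0 and 0 TPM in extracranial tumors (log2 fold change 8.58 ± 1.81 (SE), adjusted p = 0.0058). Pax3, a factor of the dorsal neural tube and neural crest, stood at 19.4, 9.6, 0.585, 5.24 and 343 TPM in intra-CNS and 0.0271, 0.162, 0.0377, 0.0383 and 0.423 TPM in extracranial tumors (log2 fold change 8.55 ± 1.90 (SE), adjusted p = 0.0075). In R26P87 both were above the other intra-CNS tumors, and 29050A held the lowest levels. En1, the paralog of En2, stood at 36.9, 75.7, 90.4, 247 and 107 TPM in intra-CNS and 21, 2.05, 8.48, 22.2 and 86.8 TPM in extracranial tumors (log2 fold change 1.51 ± 0.84 (SE), adjusted p = 0.18) and overlapped through the jaw tumor of R26P123. Fgf17, a related signal, was not called (2.52, adjusted p = 0.21), and passed without the nose tumor (5.33, adjusted p = 0.015).

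Of 7 repressors of neuronal genes and of their partners, 1 passed the test. Rest, which silences neuronal genes outside the nervous system, stood at 3.84, 9.8, 16.3, 12.7 and 18.6 TPM in intra-CNS and 14.8, 20, 10, 13.1 and 19 TPM in extracranial tumors (log2 fold change -0.83 ± 0.39 (SE), adjusted p = 0.13). The groups overlapped. Id4, an inhibitor of proneural factors in neural progenitors, stood at 273, 326, 209, 576 and 46.8 TPM in intra-CNS and 1.33, 12.8, 0.747, 0.579 and 5.48 TPM in extracranial tumors (log2 fold change 5.57 ± 1.06 (SE), adjusted p = 0.0037), with no overlap. Id3, a related inhibitor, stood at 346, 505, 647, 735 and 862 TPM in intra-CNS and 82.3, 561, 735, 848 and 793 TPM in extracranial tumors (log2 fold change -0.46 ± 0.51 (SE), adjusted p = 0.49), and the back tumor was the lowest of the 10.

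Hox genes, which record position along the body axis, were called in both directions. Of 39 members, 6 were higher and 2 lower in intra-CNS tumors by edgeR (median log2 fold change 0.32), beside the 26.2% of all genes tested that passed. The counts were 7 and 6 by DESeq2, and 3 and 2 by limma on log2(TPM + 1). By edgeR all 6 higher genes were of the Hoxd cluster, and both lower genes of the Hoxc cluster. Hoxd3 stood at 16.3, 39.3, 3.55, 3.17 and 12.2 TPM in intra-CNS and 0.506, 0.0154, 0.176, 0 and 0.122 TPM in extracranial tumors (log2 fold change 6.04 ± 1.24 (SE), adjusted p = 0.0053). Hoxd11 stood at 3.67, 32.8, 0.204, 0.526 and 3.42 TPM in intra-CNS and 0.124, 0, 0.0347, 0 and 0 TPM in extracranial tumors (log2 fold change 7.59 ± 1.84 (SE), adjusted p = 0.011). Levels were highest in 38594A for each, and the lowest intra-CNS tumor exceeded the highest extracranial tumor. Hoxd10 stood at 19.1, 154, 1.67, 2.46 and 11.8 TPM in intra-CNS and 2.1, 0.0242, 0.237, 0 and 0.115 TPM in extracranial tumors (log2 fold change 5.77 ± 1.77 (SE), adjusted p = 0.031), and the back tumor overlapped. Hoxd12 had no count in any extracranial tumor and 1.27, 15.8, 0.0462, 0.0875 and 0.306 TPM in the intra-CNS tumors, at least 168-fold higher (adjusted p = 0.036). The call of Hoxd10 was lost without 38594A (3.66, adjusted p = 0.1) and without any 1 extracranial tumor but the back tumor (adjusted p of 0.052 to 0.062). That of Hoxd12 was lost without 29048 or any 1 extracranial tumor but the nose tumor (adjusted p of 0.054 to 0.057). With age as a covariate, Hoxd10 and Hoxd11 lost theirs (adjusted p of 0.35 and 0.11).

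Hoxc8 stood at 0.287, 0.136, 0.263, 5.75 and 2.57 TPM in intra-CNS and 68.8, 16.3, 54.9, 111 and 1.29 TPM in extracranial tumors (log2 fold change -5.35 ± 1.39 (SE), adjusted p = 0.016). Hoxc6 stood at 0.213, 0.354, 0.686, 10.9 and 4.45 TPM in intra-CNS and 91.1, 19.4, 62.3, 55.6 and 1.12 TPM in extracranial tumors (log2 fold change -4.30 ± 1.33 (SE), adjusted p = 0.032). In both, the jaw tumor of R26P123 lay inside the intra-CNS range and the other 4 extracranial tumors above it. Only Hoxc8 kept its call in every omission of 1 tumor, and Hoxc6 lost its call in 6 of the 10 omissions (adjusted p of 0.052 to 0.069). Hoxb7, the most abundant Hox gene not called, stood at 17.7, 1.02, 0.43, 4.8 and 52.3 TPM in intra-CNS and 60.5, 0.847, 1.03, 0.0583 and 30.9 TPM in extracranial tumors (log2 fold change -0.79 ± 1.60 (SE), adjusted p = 0.72). Here the back tumor and R26P123 were high among extracranial tumors, and 29048 and R26P87 among intra-CNS tumors. Hoxa5 stood at 0.407, 0.257, 16.1, 29.7 and 11.4 TPM in intra-CNS and 24.7, 0, 0, 0 and 0.0757 TPM in extracranial tumors (log2 fold change 0.72 ± 2.06 (SE), adjusted p = 0.81). The Hoxa genes were under 1 TPM in 29048 and 38594A and, outside the back tumor, in the extracranial group, with Hoxa13 in the jaw tumor of R26P123 (2.54 TPM) as the exception. Without 29048 and the back tumor, 11 of the 39 were higher and 0 lower by edgeR, against 6 and 2 with all tumors.

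**Figure D2:**
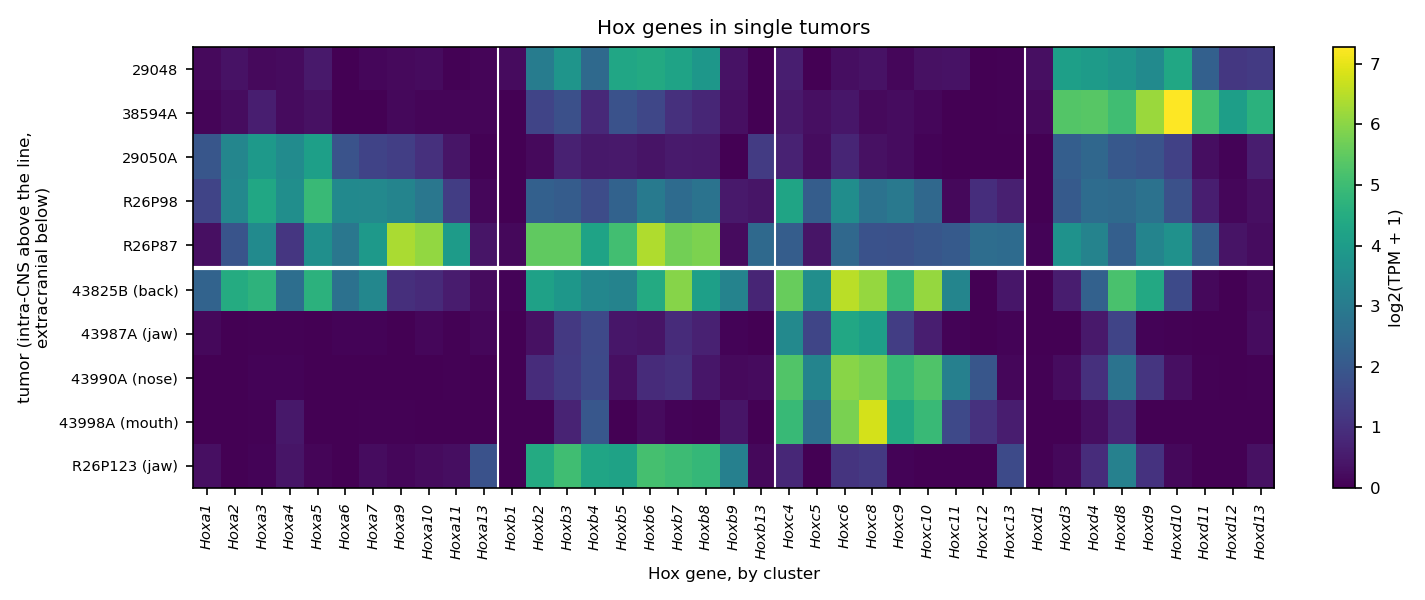
Levels of 39 Hox genes in the 10 tumors as log2(TPM + 1) in color, with genes by cluster along the horizontal axis and 1 tumor per row, intra-CNS tumors above the white line and extracranial tumors below it. The Hoxd genes are brightest in 38594A, the Hoxa genes are lit in the back tumor and in 29050A, R26P98 and R26P87, and Hoxc genes are lit in all extracranial tumors except the jaw tumor of R26P123.

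Cranial mesenchyme and neural crest factors were lower in intra-CNS tumors for 7 of 25 members and higher for 2 (median log2 fold change -1.50), beside 12.7% and 13.5% of all genes. None of the 25 was without overlap in normalized counts, limma on log2(TPM + 1) called 3 lower and 3 higher, and the fit of tumors given tamoxifen on embryonic day 6 called 0 lower and 1 higher. Meox1, a factor of somite derivatives, stood at 2.27, 1.93, 2.38, 2.76 and 5.56 TPM in intra-CNS and 4.08, 241, 1.78, 209 and 4.73 TPM in extracranial tumors (log2 fold change -5.51 ± 1.45 (SE), adjusted p = 0.016). Alx1, a factor of the face and skull, stood at 0.204, 1.91, 0.0469, 0.178 and 0 TPM in intra-CNS and 0.0841, 14.1, 521, 56.3 and 0.057 TPM in extracranial tumors (log2 fold change -8.41 ± 2.45 (SE), adjusted p = 0.025). Alx1 was highest in the nose tumor and Meox1 in the jaw tumor of 43987A and in the mouth tumor, and in the back tumor both genes were within the intra-CNS range. The call of Alx1 was lost without the nose tumor (-5.86, adjusted p = 0.053) or any 1 intra-CNS tumor but 38594A (adjusted p of 0.051 to 0.057). Snai1, a repressor of epithelial genes, and Tbx15, a factor of dermis and skeleton, were also lower (-3.37 and -4.43). Prrx1 and Tbx18 were lower too, and lost their calls in 8 and 6 omissions of 1 tumor (adjusted p of 0.056 to 0.093 and 0.051 to 0.062). Twist1, a factor of cranial mesenchyme, was not called, at 18.5, 25.9, 71.5, 365 and 7.4 TPM in intra-CNS and 3.86, 124, 15.1, 130 and 356 TPM in extracranial tumors (log2 fold change -0.84 ± 1.22 (SE), adjusted p = 0.61). R26P98 held as much Twist1 as the jaw tumor of R26P123. Hand2, a factor of the branchial arches and heart, stood at 84.1, 92.7, 255, 439 and 232 TPM in intra-CNS and 75.8, 0.18, 0.229, 0.298 and 0 TPM in extracranial tumors (log2 fold change 3.34 ± 1.83 (SE), adjusted p = 0.18). The back tumor was the exception among extracranial tumors, and without it the log2 fold change of Hand2 was 9.76 with an adjusted p of 0.00051. Sox10, a factor of crest and oligodendrocytes, was higher in intra-CNS tumors through 29048 (62.2, 0.564, 2.13, 0.327 and 2.2 TPM), and its call was lost without that tumor (3.86, adjusted p = 0.084), without the back tumor (6.95, adjusted p = 0.052) and without the mouth tumor (6.91, adjusted p = 0.051). Alx4, the other member called higher, lost its call in 8 omissions of 1 tumor (adjusted p of 0.054 to 0.14). Without 29048, 0 of 25 members were higher and 5 lower. Set against the back tumor alone, the log2 fold change of Alx1 turned positive (1.81, not called).

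Fibrillar matrix genes were lower in intra-CNS tumors for 20 of 22 members, and none was higher (median log2 fold change -3.46). The count was 13 by limma on log2(TPM + 1) and 10 in the fit of tumors given tamoxifen on embryonic day 6. Col1a2, a chain of type I collagen, stood at 81.7, 57.3, 26.9, 28.3 and 22.9 TPM in intra-CNS and 114, 1358, 2243, 2401 and 2334 TPM in extracranial tumors (log2 fold change -5.78 ± 0.82 (SE), adjusted p = 0.00087). Postn (chr3:54361109-54391037), a matrix protein of periosteum and tumor stroma, stood at 9.38, 7.23, 7.07, 6.89 and 7.29 TPM in intra-CNS and 79.1, 1806, 30, 7065 and 5391 TPM in extracranial tumors (log2 fold change -9.10 ± 1.55 (SE), adjusted p = 0.0021). The groups did not overlap for these 2 genes, with the back tumor lowest for collagen and the nose tumor lowest for Postn among extracranial tumors. Lum, a collagen-binding proteoglycan, stood at 8.64, 1.24, 5.71, 4.7 and 9.07 TPM in intra-CNS and 885, 216, 310, 0.642 and 46.8 TPM in extracranial tumors (log2 fold change -6.13 ± 1.42 (SE), adjusted p = 0.0092), and the mouth tumor fell below every intra-CNS tumor. Dcn, a related proteoglycan, stood at 53, 14.2, 48.3, 37 and 17 TPM in intra-CNS and 5750, 156, 487, 34 and 105 TPM in extracranial tumors (log2 fold change -5.78 ± 1.45 (SE), adjusted p = 0.013). Its mean in extracranial tumors was carried by the back tumor, and with age as a covariate its call was lost (-3.50, adjusted p = 0.18). Lox, which crosslinks collagen, had a log2 fold change of -5.39, adjusted p = 0.0038, and Sparc, a collagen-binding protein of bone and stroma, one of -2.09, adjusted p = 0.0051. Eln, the elastin gene, stood at 17.7, 18.8, 24.3, 8.63 and 7.64 TPM in intra-CNS and 7, 3.06, 8.05, 4.5 and 29.4 TPM in extracranial tumors (log2 fold change 0.10 ± 0.59 (SE), adjusted p = 0.91) and overlapped. Without 29048 and the back tumor, 17 of 22 were lower.

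Matrix proteases and their inhibitors were lower for 12 of 15 members (median log2 fold change -5.21). Ctsk (chr3:95499256-95509362), the collagen-degrading cathepsin of osteoclasts, stood at 5.53, 2.44, 4.98, 2.45 and 3.56 TPM in intra-CNS and 519, 18.7, 27.4, 11043 and 1406 TPM in extracranial tumors (log2 fold change -10.00 ± 1.96 (SE), adjusted p = 0.0042). Acp5, the acid phosphatase of osteoclasts, stood at 2.52, 2.09, 5.67, 5.76 and 0.479 TPM in intra-CNS and 550, 28.5, 65, 9967 and 1175 TPM in extracranial tumors (log2 fold change -10.04 ± 1.92 (SE), adjusted p = 0.0038). Atp6v0d2, a proton pump subunit of osteoclasts, stood at 0.271, 0.0644, 0.452, 0.133 and 0.442 TPM in intra-CNS and 37.2, 1.09, 3.32, 822 and 99.2 TPM in extracranial tumors (log2 fold change -9.99, adjusted p = 0.0046). The mouth tumor was the highest for all 3 genes, as it was for Mmp9, and no extracranial tumor fell within the intra-CNS range. Timp1, an inhibitor of metalloproteinases, stood at 6.59, 13, 7.8, 5.98 and 4.85 TPM in intra-CNS and 1569, 4490, 8.94, 3282 and 2189 TPM in extracranial tumors (log2 fold change -8.77 ± 1.32 (SE), adjusted p = 0.0012). The nose tumor was inside the intra-CNS range for Timp1, far below the other extracranial tumors. Plau, the urokinase, and Mmp13, the collagenase of bone, were lower as well (-5.21 and -7.05). Timp3, another inhibitor, stood at 146, 64, 108, 65 and 48.3 TPM in intra-CNS and 342, 97.6, 20.1, 102 and 53.8 TPM in extracranial tumors (log2 fold change -1.04 ± 0.66 (SE), adjusted p = 0.24) and was not called.

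MHC class I genes were lower in intra-CNS tumors for each of the 9 members (median log2 fold change -2.94). B2m, whose promoter is shown above, stood at 564, 532, 677, 840 and 474 TPM in intra-CNS and 4409, 2466, 3936, 1128 and 2367 TPM in extracranial tumors (log2 fold change -2.70 ± 0.36 (SE), adjusted p = 0.00067). H2-K1, a heavy chain, stood at 133, 154, 130, 236 and 69.7 TPM in intra-CNS and 1490, 481, 989, 352 and 643 TPM in extracranial tumors (log2 fold change -2.94 ± 0.45 (SE), adjusted p = 0.0013), and heavy chain paralogs may share reads. Psmb8, a subunit of the immunoproteasome, stood at 13.1, 12.6, 15.5, 21.2 and 6.88 TPM in intra-CNS and 176, 75.8, 184, 130 and 80.9 TPM in extracranial tumors (log2 fold change -3.72 ± 0.38 (SE), adjusted p = 0.00023). All the intra-CNS tumors lay below all the extracranial tumors for these 3 genes. Tap1 and Tap2, the peptide transporter, had log2 fold changes of -3.10 and -2.99, with no overlap for either. Nlrc5, the activator of class I genes, had one of -2.67, adjusted p = 0.017 and overlapped through the mouth tumor. Without 29048 the count was 9 of 9.

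MHC class II genes were lower for 4 of 7 members by edgeR (median log2 fold change -3.47), for 7 by DESeq2 and by limma on log2(TPM + 1), and for 6 with age as a covariate. Normalized counts of the groups did not overlap for any of the 7. H2-Aa, a class II chain, stood at 5.27, 2.93, 223, 181 and 3.43 TPM in intra-CNS and 2616, 853, 738, 231 and 197 TPM in extracranial tumors (log2 fold change -3.97 ± 1.42 (SE), adjusted p = 0.055). Cd74, the invariant chain, stood at 17.3, 13.7, 383, 362 and 6.57 TPM in intra-CNS and 3427, 1187, 928, 290 and 346 TPM in extracranial tumors (log2 fold change -3.47 ± 1.27 (SE), adjusted p = 0.06). Within the intra-CNS group 29050A and R26P98 were high and the other 3 tumors low for both, so that in TPM, though not in normalized counts, their range met that of the extracranial tumors. DESeq2 called both (adjusted p of 0.0024 and 0.0044). H2-DMa, which loads peptides, stood at 14.2, 19.3, 17.6, 18.2 and 11.4 TPM in intra-CNS and 108, 40.4, 53.7, 13.7 and 31.4 TPM in extracranial tumors (log2 fold change -2.11 ± 0.47 (SE), adjusted p = 0.0074), with the mouth tumor inside the intra-CNS range in TPM only. Ciita, the activator of the class, had a log2 fold change of -3.01, adjusted p = 0.033, lost without 29048 (-2.74, adjusted p = 0.054), 38594A (-2.88, adjusted p = 0.075) or the back tumor (-2.41, adjusted p = 0.078). Without 29048, 2 of the 7 passed.

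Chemokine ligands were lower for 11 of 16 members and higher for none by edgeR (median log2 fold change -4.68), 12 and 1 by DESeq2 and 8 and 1 by limma on log2(TPM + 1). Ccl2, which draws monocytes, stood at 3.79, 2.7, 4.16, 7.56 and 3.16 TPM in intra-CNS and 455, 673, 93.4, 601 and 114 TPM in extracranial tumors (log2 fold change -7.04 ± 0.75 (SE), adjusted p = 0.00026). Ccl8, a related ligand, stood at 0.499, 1.26, 1.91, 2.39 and 0.433 TPM in intra-CNS and 280, 148, 644, 2.32 and 328 TPM in extracranial tumors (log2 fold change -8.16 ± 1.25 (SE), adjusted p = 0.0013). No overlap was seen for Ccl2, and for Ccl8 the mouth tumor came down to the intra-CNS level in TPM, with no overlap in normalized counts. Cxcl2, which draws neutrophils, stood at 0.0784, 0.0744, 0.144, 0.205 and 0 TPM in intra-CNS and 27.6, 82.7, 1.62, 2.39 and 156 TPM in extracranial tumors (log2 fold change -9.38 ± 1.53 (SE), adjusted p = 0.0017). Cxcl9, induced by interferon gamma, was highest in the nose tumor (11.7, 1.65, 317, 0.0764 and 35.2 TPM in the extracranial tumors, log2 fold change -8.22 ± 2.13 (SE), adjusted p = 0.015). Cx3cl1, a ligand made by neurons, had a positive log2 fold change of 2.78, adjusted p = 0.062.

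**Figure D3:**
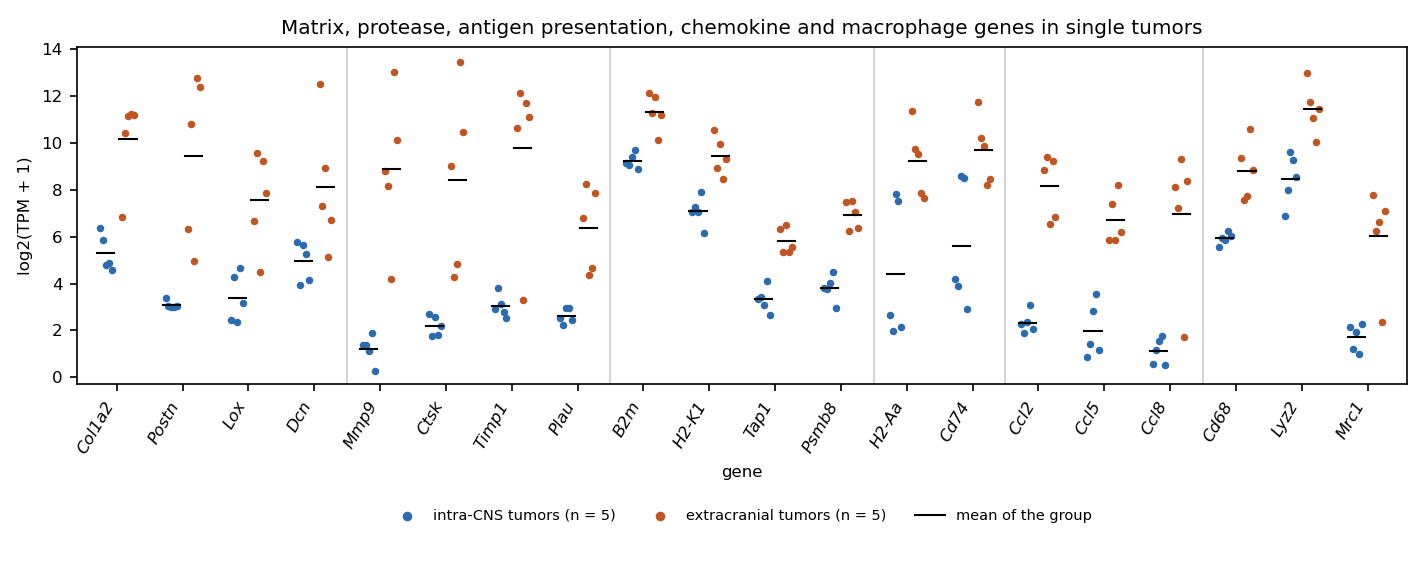
Levels of 20 matrix, protease, antigen presentation, chemokine and macrophage genes in single tumors as log2(TPM + 1) on the vertical axis, with genes along the horizontal axis, blue points for the 5 intra-CNS tumors, orange points for the 5 extracranial tumors and black lines for group means. Collagen, MHC class I, Ccl2 and Ccl5 separate the groups. The nose tumor lies among the intra-CNS tumors for Timp1, and the mouth tumor does for Ccl8. Dcn, H2-Aa and Cd74 overlap in TPM as well.

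By edgeR most markers of macrophages, of T and NK cells and of neutrophils were lower in intra-CNS tumors, as were the matrix and immune genes above. Whether they vary together from tumor to tumor was not tested. Of 12 macrophage markers, 11 were lower in intra-CNS tumors, and their summed level was 307 to 985 TPM there against 3019 to 10316 TPM in extracranial tumors. Msr1, a scavenger receptor, stood at 0.977, 2.38, 2.76, 4.19 and 1.19 TPM in intra-CNS and 101, 33.6, 21.4, 52.1 and 62.5 TPM in extracranial tumors (log2 fold change -5.06 ± 0.58 (SE), adjusted p = 0.00036). Mrc1, the mannose receptor of tissue macrophages, stood at 3.43, 1.32, 2.8, 1 and 3.89 TPM in intra-CNS and 219, 75.1, 96.5, 4.08 and 137 TPM in extracranial tumors (log2 fold change -5.90 ± 0.91 (SE), adjusted p = 0.0013). Csf1r, the receptor that macrophages need to survive, had a log2 fold change of -2.81, adjusted p = 0.0007. The sums did not overlap. Of 13 markers of T and NK cells, 10 were lower, with sums of 1.05 to 6.75 TPM against 15 to 63.8 TPM, and Cd3e, the defining chain of the T cell receptor complex, stood at 0, 0.0553, 0.83, 1.75 and 0 TPM in intra-CNS and 5.25, 0.246, 5.16, 1.62 and 3.27 TPM in extracranial tumors (log2 fold change -3.01 ± 1.37 (SE), adjusted p = 0.12). Such T cell levels were low in both groups, and 13 of 13 passed by DESeq2, 5 by limma on log2(TPM + 1) and 4 without 29048 and the back tumor. Of 6 neutrophil markers 5 were lower, beside 12.7% of all genes, and 3 by limma on log2(TPM + 1) or with tamoxifen on embryonic day 6 alone. S100a8, a calcium-binding protein of neutrophils, stood at 0.867, 0.205, 2.59, 0.283 and 0.847 TPM in intra-CNS and 14.7, 52.2, 93.4, 0.566 and 377 TPM in extracranial tumors (log2 fold change -7.13 ± 1.52 (SE), adjusted p = 0.0061). The mouth tumor was at the intra-CNS level for it and R26P123 was the highest. The part of these cells in the levels of MHC, chemokine and protease genes was not tested.

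Microglia, the macrophages of the brain, were not higher in intra-CNS tumors as a list, with 1 of 8 markers higher and 3 lower and sums of 407 to 756 TPM against 777 to 1689 TPM. The higher share was near the 13.5% of all genes, and the lower share stood beside 12.7%. DESeq2 called 2 higher and 3 lower, and limma on log2(TPM + 1) called 2 higher and 1 lower. In normalized counts 2 were higher and 1 lower without overlap. Without 29048 and the back tumor, 1 was higher and 1 lower by edgeR. Siglech, a microglial lectin also of plasmacytoid dendritic cells, stood at 16.2, 4.54, 4.24, 4.51 and 5.12 TPM in intra-CNS and 1.44, 0.252, 0.764, 1.07 and 0.859 TPM in extracranial tumors (log2 fold change 2.47 ± 0.60 (SE), adjusted p = 0.011). It was the only member called higher by edgeR, and its groups did not overlap. Olfml3, a secreted protein, was among the lower ones (-1.83, adjusted p = 0.011). Cx3cr1, the fractalkine receptor, stood at 64.3, 57.1, 43.5, 43.6 and 31.6 TPM in intra-CNS and 164, 97.3, 69.4, 19.9 and 90.2 TPM in extracranial tumors (log2 fold change -1.37 ± 0.44 (SE), adjusted p = 0.038), a call that was lost on leaving out any 1 tumor but 29048, the nose tumor or the mouth tumor (adjusted p of 0.061 to 0.089). Tmem119, a marker of resident microglia, stood at 32.9, 25.9, 23.2, 26.3 and 21.5 TPM in intra-CNS and 14.4, 81.5, 34.9, 12.6 and 45.1 TPM in extracranial tumors (log2 fold change -1.03 ± 0.47 (SE), adjusted p = 0.11) and overlapped.

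Neural cell markers were higher in intra-CNS tumors. Of 18 neuron markers 13 were higher, with sums of 356 to 7084 TPM against 57.3 to 825 TPM, which overlapped. Elavl3, an RNA-binding protein of young neurons, stood at 134, 125, 25.6, 14.7 and 37 TPM in intra-CNS and 0, 0.0445, 0.145, 0.0441 and 0.0141 TPM in extracranial tumors (log2 fold change 9.82 ± 1.05 (SE), adjusted p = 0.00026). Slc17a6, the glutamate transporter of excitatory neurons, stood at 174, 50.3, 4.27, 1.53 and 1.43 TPM in intra-CNS and 0, 0, 0, 0.0168 and 0 TPM in extracranial tumors (log2 fold change 12.71 ± 2.12 (SE), adjusted p = 0.0019). Both were highest in 29048 and 38594A, the tumors of the youngest mice. Stmn2, a neuronal tubulin-binding protein, stood at 417, 542, 69.8, 31 and 106 TPM in intra-CNS and 2.42, 21.3, 2.61, 449 and 19.5 TPM in extracranial tumors (log2 fold change 0.63 ± 1.39 (SE), adjusted p = 0.74), and the mouth tumor was among the highest. Snap25, a synaptic protein, stood at 2049, 605, 218, 37 and 38.8 TPM in intra-CNS and 0.135, 93.9, 28.1, 11.3 and 37.7 TPM in extracranial tumors (log2 fold change 3.60 ± 1.45 (SE), adjusted p = 0.081), with 2049 TPM in 29048. Of 8 astrocyte markers 5 were higher, led by Aqp4 (11.96), the water channel of astrocytes, and by Gfap at 584, 96.9, 78.9, 88.4 and 5.57 TPM in intra-CNS and 0.0515, 0.055, 0.0896, 0.109 and 0.0698 TPM in extracranial tumors (log2 fold change 10.61 ± 1.30 (SE), adjusted p = 0.00047). Without 29048, 11 neuron and 4 astrocyte markers passed, and in the fit of tumors given tamoxifen on embryonic day 6, 4 and 2.

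Among the 10 tumors of this comparison, oligodendrocyte and choroid plexus markers were highest by far in 29048. Summed choroid plexus and ependymal markers stood at 4715 TPM there, at 12.3 to 23.8 TPM in the other intra-CNS tumors and at 0.65 to 9.4 TPM in extracranial tumors. Mbp, a myelin protein, stood at 1971, 14.1, 33.4, 9.2 and 3.74 TPM in intra-CNS and 59.7, 3.03, 2.42, 19.7 and 9.56 TPM in extracranial tumors (log2 fold change 3.89 ± 1.82 (SE), adjusted p = 0.12). Ttr, the transthyretin of choroid plexus, stood at 4535, 3.36, 2.27, 0.635 and 0.0906 TPM in intra-CNS and 0, 0, 0, 0 and 0.0582 TPM in extracranial tumors (log2 fold change 15.17 ± 3.93 (SE), adjusted p = 0.015). In both cases 29048 was far above every other tumor of the 10. Mbp was not called, and the call of Ttr was lost without the jaw tumor of R26P123 (16.71, adjusted p = 0.084). Without 29048 the log2 fold change of Ttr was 6.02 (adjusted p = 0.0094). Foxj1, a factor of motile cilia, was higher without relying on it, at 46.8, 15.9, 5.82, 12.2 and 21.7 TPM in intra-CNS and 0.407, 0.573, 1.39, 0.689 and 0.248 TPM in extracranial tumors (log2 fold change 4.45 ± 0.68 (SE), adjusted p = 0.0012). Of 10 oligodendrocyte markers 3 were higher by edgeR, beside 13.5% of all genes, 2 without 29048, 0 by DESeq2 and 1 by limma on log2(TPM + 1). Of 8 choroid plexus and ependymal markers 4 were higher by edgeR, 3 without 29048, 2 by DESeq2 and 1 by limma. Genes that DESeq2 leaves without an adjusted p count as not called, so a low DESeq2 count need not be a negative result. The fit of tumors given tamoxifen on embryonic day 6 called 0 of either list.

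Of 7 blood-brain barrier genes 5 were higher in intra-CNS tumors, beside 13.5% of all genes, led by Slco1a4, an organic anion carrier, at 73.2, 9.55, 17.9, 6.3 and 25.2 TPM in intra-CNS and 0, 0.0578, 0.0754, 0 and 0 TPM in extracranial tumors (log2 fold change 9.23 ± 1.20 (SE), adjusted p = 0.00063). Mfsd2a, the lipid carrier of brain vessels, stood at 54.6, 29.7, 43.9, 27.5 and 76.6 TPM in intra-CNS and 0.146, 0.479, 3.09, 0.516 and 3.73 TPM in extracranial tumors (log2 fold change 4.41 ± 0.84 (SE), adjusted p = 0.0036). The groups did not overlap for either. Slc2a1, a glucose carrier of barrier vessels and many tumors, stood at 147, 68.2, 80.8, 95.6 and 96.5 TPM in intra-CNS and 114, 581, 39.2, 140 and 238 TPM in extracranial tumors (log2 fold change -1.71 ± 0.60 (SE), adjusted p = 0.053). Of 5 endothelial markers common to all vessels 1 was lower, Cdh5, the junction cadherin (-1.31, adjusted p = 0.044), and that call was lost without any 1 intra-CNS tumor, the back tumor or the jaw tumor of 43987A (adjusted p of 0.058 to 0.1). In the fit of tumors given tamoxifen on embryonic day 6, 2 of the 7 barrier genes were higher. Pecam1, an endothelial adhesion protein, stood at 22.7, 12.2, 18.9, 17.8 and 27.6 TPM in intra-CNS and 43.1, 120, 15.7, 14.4 and 18.6 TPM in extracranial tumors (log2 fold change -1.62 ± 0.61 (SE), adjusted p = 0.065).

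Markers of tissues next to the extracranial sites were uneven among tumors. Of 13 skeletal muscle markers 10 were lower in intra-CNS tumors, with sums of 6.16 to 15.4 TPM against 23 to 876 TPM. The count was 11 by DESeq2, 4 by limma on log2(TPM + 1) and 6 with age as a covariate, and 4 of the 13 were without overlap in normalized counts. Tnnt3, a troponin of fast fibers, stood at 0.379, 0.934, 0.348, 0.0989 and 0 TPM in intra-CNS and 26.7, 25.2, 9.89, 8.25 and 161 TPM in extracranial tumors (log2 fold change -7.43 ± 1.24 (SE), adjusted p = 0.0019). Acta1, the skeletal actin, stood at 2.54, 1.08, 0.919, 0.0705 and 0 TPM in intra-CNS and 64.1, 51.6, 0.0464, 1.7 and 285 TPM in extracranial tumors (log2 fold change -6.89 ± 1.91 (SE), adjusted p = 0.02). The jaw tumor of R26P123 was the highest for both, and the nose tumor held almost no Acta1. With age as a covariate Acta1 lost its call (adjusted p = 0.071). Of 11 skin and oral epithelium markers 3 were lower and 1 higher by edgeR, and 0 and 1 by DESeq2. Krt14, the keratin of basal epithelium, stood at 0.0494, 0.515, 0.0227, 0.0644 and 0 TPM in intra-CNS and 0, 0.052, 0.594, 0 and 599 TPM in extracranial tumors (log2 fold change -10.24 ± 3.26 (SE), adjusted p = 0.035). It came from R26P123, and without that tumor its log2 fold change was -0.74 with an adjusted p of 0.72. Without any 1 intra-CNS tumor the call was lost too (adjusted p of 0.058 to 0.08), and without 29048 none of the 11 were lower by edgeR. Epcam, an epithelial adhesion protein also of progenitors, was the higher member, at 39.3, 88.9, 410, 523 and 67.9 TPM in intra-CNS and 0.509, 6.82, 1.91, 8 and 13.1 TPM in extracranial tumors (log2 fold change 4.72 ± 1.04 (SE), adjusted p = 0.0072). Of 5 adipocyte markers 1 was lower, Fabp4, a fatty acid carrier also of macrophages and vessels (-8.56, adjusted p = 0.0015), while DESeq2 called 4 lower, as did the fit of tumors given tamoxifen on embryonic day 6, and all 5 had an unadjusted p under 0.05. Summed adipocyte markers stood at 0.0578 to 0.612 TPM in intra-CNS and 2.43 to 277 TPM in extracranial tumors. Among red cell markers 2 of 5 could be tested and neither differed.

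Of 11 bone and cartilage markers 3 were higher and 1 lower in intra-CNS tumors, beside 13.5% and 12.7% of all genes, and 0 and 1 in the fit of tumors given tamoxifen on embryonic day 6. Col2a1, the collagen of cartilage and of early neuroepithelium, stood at 7.66, 80, 137, 156 and 14.4 TPM in intra-CNS and 0.0817, 5.89, 1.49, 0.13 and 0.0831 TPM in extracranial tumors (log2 fold change 5.17 ± 1.46 (SE), adjusted p = 0.022). Col9a1, a partner collagen, stood at 7.2, 3.38, 26.3, 15.7 and 1.26 TPM in intra-CNS and 0, 0.0216, 0.0704, 0 and 0.0343 TPM in extracranial tumors (log2 fold change 8.14 ± 1.19 (SE), adjusted p = 0.001). The jaw tumor of 43987A came close to the lowest intra-CNS tumor for Col2a1, and no extracranial tumor did for Col9a1. Runx2, the master factor of osteoblasts, was lower in intra-CNS tumors, at 1.94, 3.19, 1.55, 5.1 and 0.776 TPM in intra-CNS and 19.5, 26.8, 2.39, 25.2 and 35.2 TPM in extracranial tumors (log2 fold change -3.63 ± 0.72 (SE), adjusted p = 0.0043). Sp7, a later osteoblast factor, stood at 9.56, 9.12, 79.4, 247 and 102 TPM in intra-CNS and 1.65, 0.946, 136, 11.2 and 70.8 TPM in extracranial tumors (log2 fold change 0.60 ± 1.29 (SE), adjusted p = 0.74), under 2 TPM in the back tumor and in the jaw tumor of 43987A. Of 9 gland, nose and tooth markers tested 1 was higher, Amy1, an amylase (3.44, adjusted p = 0.0069), a share no larger than that of all genes.

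**Figure D4:**
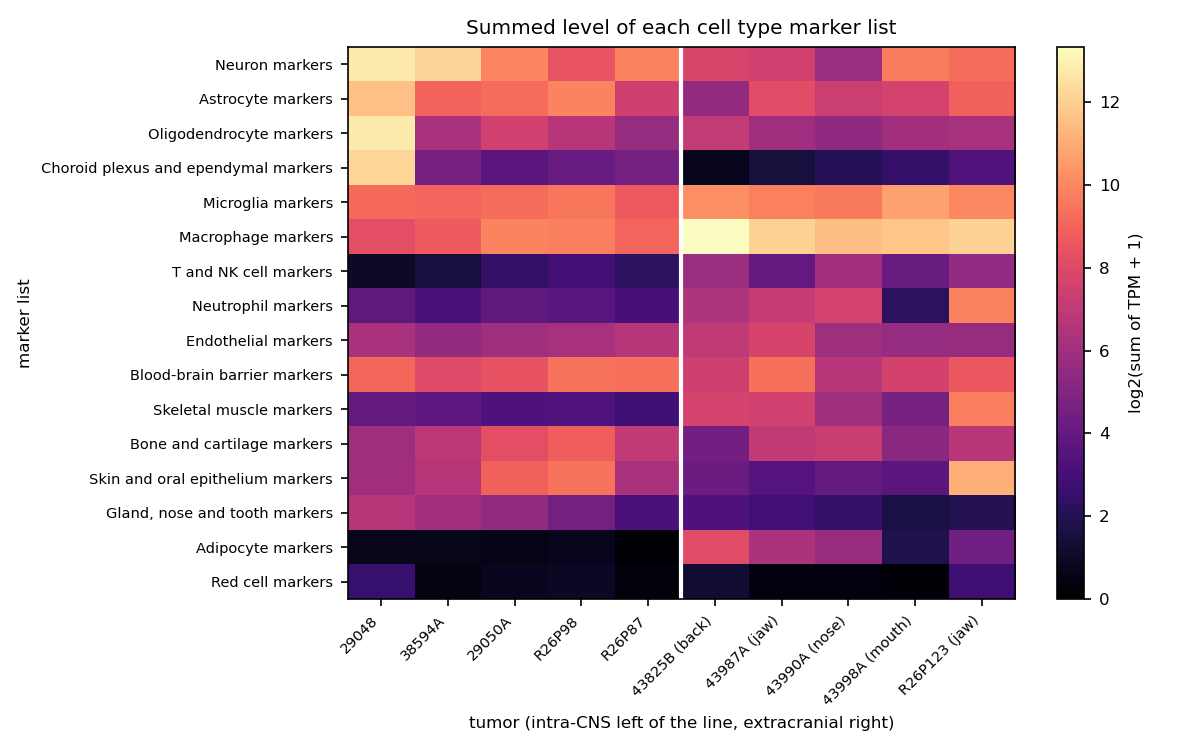
Summed level of each cell type marker list in the 10 tumors as log2(sum of TPM + 1) in color, with 1 list per row and 1 tumor per column, intra-CNS tumors left of the white line and extracranial tumors right of it. The macrophage row is brighter in all extracranial tumors (3019 to 10316 TPM) than in intra-CNS tumors (307 to 985 TPM), the oligodendrocyte and choroid plexus rows are bright in 29048 and the skin row in the jaw tumor of R26P123.

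SWI/SNF subunits were higher in intra-CNS tumors for 7 of 26 members and lower for 1 (median log2 fold change 0.47), beside 13.5% and 12.7% of all genes. Called in either direction were 26.2% of all genes. By limma on log2(TPM + 1), 12 subunits were higher and 0 lower. The 4 called members with the largest fold changes are given first, and tissue-specific subunits were not tested as a set. Actl6b, an actin-related subunit, stood at 89.5, 107, 24.1, 10.1 and 17.2 TPM in intra-CNS and 0, 0.145, 0.0471, 0 and 0 TPM in extracranial tumors (log2 fold change 9.40 ± 1.21 (SE), adjusted p = 0.00058). Dpf3, a finger protein of muscle and neuronal complexes, stood at 3.18, 4.93, 4.16, 3.08 and 2.43 TPM in intra-CNS and 0.0556, 0.0119, 0.309, 0.177 and 0 TPM in extracranial tumors (log2 fold change 4.50 ± 1.02 (SE), adjusted p = 0.0082). Ss18l1, the neuronal paralog of Ss18, stood at 50.3, 57.9, 31.2, 22.3 and 30.7 TPM in intra-CNS and 3.55, 7.97, 3.16, 5.71 and 6.38 TPM in extracranial tumors (log2 fold change 2.33 ± 0.36 (SE), adjusted p = 0.0013). Smarcd3, a subunit of heart and neural complexes, stood at 165, 254, 223, 265 and 198 TPM in intra-CNS and 14.8, 41.7, 55.2, 25.8 and 52.2 TPM in extracranial tumors (log2 fold change 2.06 ± 0.33 (SE), adjusted p = 0.0015). These 4 genes were apart between the groups, and Actl6b was highest in the 2 tumors richest in neuron markers. The ATPase Smarca2 was higher (1.60, adjusted p = 0.0049) and Smarcd2, a subunit needed for granulocytes, was lower (-1.19, adjusted p = 0.0043). Smarcc2, a core subunit, stood at 218, 233, 204, 244 and 250 TPM in intra-CNS and 80.2, 81.6, 86.3, 82.1 and 111 TPM in extracranial tumors (log2 fold change 0.88 ± 0.14 (SE), adjusted p = 0.0018), past the adjusted p and below the fold threshold. Of 15 Polycomb genes 1 was called, Phc1, a subunit of the first Polycomb complex, at 83.4, 141, 286, 270 and 268 TPM in intra-CNS and 17.7, 32.5, 38, 17.8 and 23 TPM in extracranial tumors (log2 fold change 2.54 ± 0.38 (SE), adjusted p = 0.0012). Its groups did not overlap, and the share of all genes called higher was 13.5%. Without 29048 the count was 3 higher, and by limma on log2(TPM + 1) it was 4.

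None of 8 proliferation genes passed the test by edgeR, 2 had an unadjusted p under 0.05 and DESeq2 called 0. Mki67 stood at 12.3, 49.1, 42.9, 64.9 and 57 TPM in intra-CNS and 37.6, 34.3, 89.8, 42.8 and 49.8 TPM in extracranial tumors (log2 fold change -0.65 ± 0.41 (SE), adjusted p = 0.24). Pcna, the replication clamp, stood at 153, 244, 348, 339 and 455 TPM in intra-CNS and 238, 208, 436, 182 and 217 TPM in extracranial tumors (log2 fold change -0.22 ± 0.31 (SE), adjusted p = 0.6). Both overlapped between the groups. Among 11 D cyclins and inhibitors, 5 were lower and 1 higher in intra-CNS tumors, beside 12.7% and 13.5% of all genes. The lower members Ccnd1 and Ccnd3 lost their calls in 8 and 3 omissions of 1 tumor (adjusted p of 0.052 to 0.07 and 0.057 to 0.06). Over all 19 cell cycle genes, limma on log2(TPM + 1) called 1 higher and 2 lower, beside 1 and 5 by edgeR. Cdkn1a, the p21 inhibitor, stood at 36.6, 49.5, 14, 53.5 and 17.9 TPM in intra-CNS and 228, 467, 177, 242 and 384 TPM in extracranial tumors (log2 fold change -3.63 ± 0.46 (SE), adjusted p = 0.00056). Cdkn2a, the locus of p16 and p19Arf, stood at 6.06, 10.8, 8.17, 28.1 and 6.92 TPM in intra-CNS and 54.2, 79.7, 40.4, 47.8 and 55.9 TPM in extracranial tumors (log2 fold change -2.71 ± 0.47 (SE), adjusted p = 0.0023). No overlap was seen for either inhibitor. Cdkn1c, the p57 inhibitor, was the higher member, at 53, 89.6, 67.7, 72.1 and 417 TPM in intra-CNS and 6.05, 12.3, 28.9, 0.838 and 12.1 TPM in extracranial tumors (log2 fold change 3.08 ± 0.87 (SE), adjusted p = 0.022). R26P87 was the highest, and without it the call was lost (2.10, adjusted p = 0.053). Cdkn2b, the p15 inhibitor, was lower (-1.71, adjusted p = 0.017), with overlap in TPM only.

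**Figure D5:**
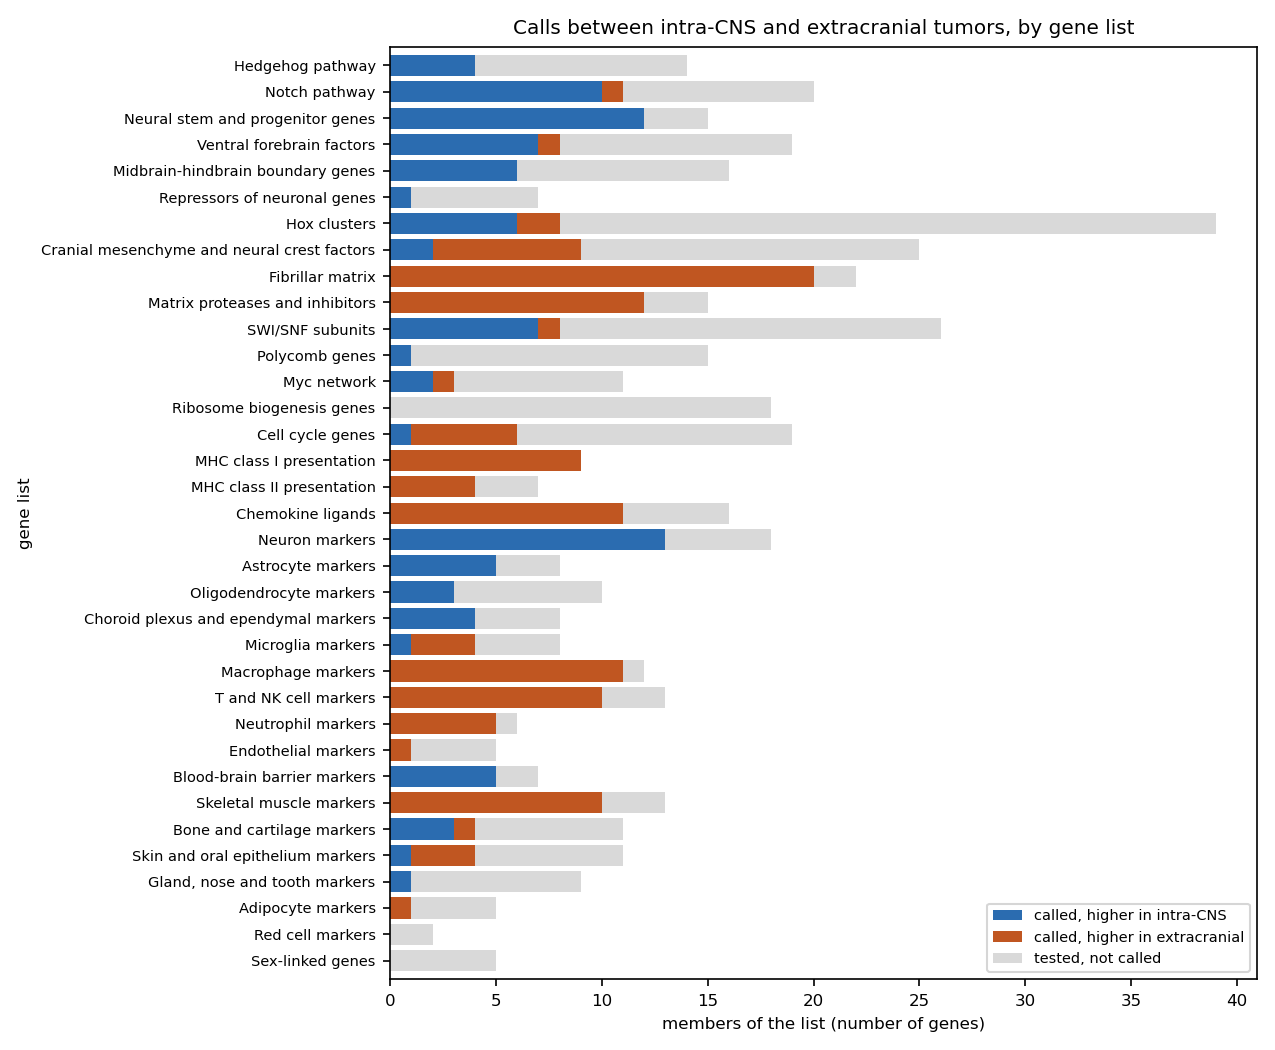
Number of genes of each of 35 lists, on the horizontal axis, that were called higher in intra-CNS tumors (blue), called higher in extracranial tumors (orange) or not called (gray), with 1 list per bar. Fibrillar matrix (20 of 22), MHC class I (9 of 9) and macrophage markers (11 of 12) are mostly orange, neural stem genes (12 of 15) and neuron markers (13 of 18) mostly blue, and ribosome biogenesis genes all gray.

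Extracranial tumors were last compared with the 6 intracranial extra-CNS tumors, which the study also places in its Myc subgroup, to ask how these locations differ. This comparison shares the extracranial tumors with the one above. The tumor of R26P115, the last of the 6 below, stood apart with 204693 TPM summed over the choroid plexus and ependymal markers, against 2.8 to 17.1 TPM in the other 5. It also had the lowest sums of cell cycle genes (854 TPM) and ribosome biogenesis genes (971 TPM) of the 6. Of 21261 genes, 1 (0.00470%) passed the test by edgeR, 2606 had an unadjusted p under 0.05 and 490 were called by DESeq2. The single gene was Ttc39aos1, an antisense transcript (chr4:109403794-109406155), at 0.373, 0.442, 0.317, 0.146 and 0.954 TPM in the extracranial and 7.18, 15.3, 9.29, 13, 19.8 and 11.6 TPM in the intracranial extra-CNS tumors. Its log2 fold change of extracranial over intracranial extra-CNS tumors was -4.86 ± 0.55 (SE), with an adjusted p of 0.036, and it was named because the count was this low. The call was kept in 2 of 11 omissions of 1 tumor and lost in the other 9 (adjusted p of 0.055 to 0.25), R26P115 included (0.081). It was lost too in the fit over the 3 groups (0.092) and with the nose tumor placed as intracranial (0.22). Mmp9 stood at 12.3, 20.9, 6.82, 137, 36.2 and 2.09 TPM in the intracranial extra-CNS tumors (log2 fold change 5.93 ± 1.52 (SE), unadjusted p = 0.0022, adjusted p = 0.34). Postn stood at 36.5, 69.3, 54.9, 67.9, 14.1 and 72.6 TPM (log2 fold change 5.74 ± 1.24 (SE), unadjusted p = 0.00062, adjusted p = 0.34). Gli1 stood at 5.93, 0.375, 4.89, 2.49, 8.56 and 1.84 TPM (log2 fold change 3.25 ± 0.65 (SE), unadjusted p = 0.00035, adjusted p = 0.34). For these 3 genes the extracranial tumors lay higher on average without passing the test. Myc stood at 122, 150, 95.7, 114, 225 and 8.73 TPM (log2 fold change 0.23 ± 0.54 (SE), unadjusted p = 0.69, adjusted p = 0.89), Mycn at 0.234, 0.132, 0.264, 0.492, 0.122 and 0 TPM (log2 fold change 2.48 ± 0.84 (SE), unadjusted p = 0.012, adjusted p = 0.35) and B2m at 2577, 2511, 2975, 2217, 4696 and 930 TPM (log2 fold change 0.09 ± 0.41 (SE), unadjusted p = 0.82, adjusted p = 0.95). Without R26P115 the log2 fold changes of Myc, Mycn and B2m were -0.03, 2.20 and -0.09 (adjusted p of 0.97, 0.37 and 0.94), and those of Mmp9, Postn and Gli1 were 5.72, 5.92 and 3.10 (adjusted p of 0.37, 0.36 and 0.35). The part of the choroid plexus transcripts in the levels of that tumor was not tested.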

How the data were processed

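The authors made libraries of polyadenylated RNA (TruSeq Stranded mRNA), sequenced them in pairs of reads, and mapped and counted them with STAR 2.5.3a on mm10. The deposited files hold raw counts per gene and TPM, which the authors scaled to 1000000 per tumor. The gene annotation they counted on is not given in the sources used here. Positions come from GENCODE release 21, where 24490 of 24982 symbols were found. Counts were tested with edgeR 4.0.16 (TMM normalization, quasi-likelihood test, genes with a count in any of the 10 tumors, Benjamini-Hochberg adjustment), and scripts were tested on simulated data. Adjusted p-values in the text are from this test unless another is named. The SE given with a log2 fold change is its absolute value divided by the square root of the test's F statistic. It is not a separately fitted error. Alternatives were DESeq2 1.42.0, limma 3.58.1 on log2(TPM + 1), other filters, omission of tumors and covariates. A floor of 3 counts corresponds to 0.0445 to 0.138 counts per 1000000 in these tumors, covers counting error only, and reads had no molecular identifiers. The p-values measure the spread between tumors of separate mice, and no batch is labelled.

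Members and gene lists were chosen with earlier results of these data known. Genes were named by rule: the 10 highest and 10 lowest log2 fold changes among genes past the threshold with a mean count of 50 and no overlap, the 5 most abundant per direction, up to 4 called and 2 other members per list, and a few fixed regulators. Further list members were named as examples after their values were seen. Some genes that the rule names are counted in their lists and not reported here. Promoter sequences are RefSeq's for GRCm38.p6, with a window for 352 of the 493 genes tabulated.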

Additional observations from a re-analysis of the deposited data

Results flagged for a closer look

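A tumor was picked out where it lay far from the other 4 of its group by Dixon's test on log2(TPM + 1), which chance alone does in about 1 of 20 groups. Among intra-CNS tumors, that of 29048 stood apart with a lower Mki67 (3.74, others 5.46 to 6.04) and with higher summed oligodendrocyte (12.8, others 5.65 to 7.51), choroid plexus and ependymal (12.2, others 3.74 to 4.63) and red cell markers (2.56, others 0.356 to 0.923). Xist was 0.538 in R26P98 (others 7.36 to 9.02), and summed adipocyte markers were 0.081 in R26P87 (others 0.54 to 0.689).

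Among extracranial tumors, the nose tumor stood apart with a lower Xist (0.228, others 6.81 to 7.48), lower summed neural stem and progenitor genes (4.3, others 7.37 to 7.93) and higher summed ribosome biogenesis genes (11.9, others 11.1 to 11.2). In the back tumor, summed repressors of neuronal genes were 7.52 (others 9.55 to 9.97) and summed cranial mesenchyme factors 7.39 (others 9.8 to 10.2). In the jaw tumor of R26P123, Sox2 was 5.03 (others 0 to 0.239) and summed skin and oral epithelium markers 11.1 (others 3.53 to 4.26).

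Ttc39aos1 was the gene that differed between the extra-CNS groups, with a log2 fold change of -4.86 ± 0.55 (SE) of extracranial over intracranial extra-CNS tumors (adjusted p = 0.036 by edgeR). The call was lost in 9 of 11 omissions of 1 tumor (adjusted p of 0.055 to 0.25). In the intra-CNS tumors it stood at 29.6, 15.2, 3.82, 3.37 and 1.22 TPM.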

How the results depend on the processing

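Of 133 named genes past the threshold between intra-CNS and extracranial tumors, 109 passed in every omission of 1 tumor, and the number of genes called ranged from 4627 to 5949 over those omissions, beside 5624. DESeq2 called 6404 genes, 5351 of them among the 5624, and left 30 named genes without an adjusted p. In every DESeq2 count of list members, a gene without an adjusted p was counted as not called. limma called 1303 genes lower on log2(TPM + 1), and 4666 higher and 1595 lower on log2(TPM + 0.1). With tamoxifen on embryonic day 6 alone, 5 tumors against the back tumor, 3130 genes were called (1148 higher), with 121 list members in place of 214 (the count moved by over 1.5 times for 22 of 35 lists, beside 14 under limma on log2(TPM + 1) and 8 under DESeq2) and 82 named genes in place of 133. In that fit the log2 fold change changed sign for Alx1 (1.81), Ivl (1.34), Krt1 (9.66), Krt14 (4.53), Krt6a (2.45) and Mmp10 (0.65). Over omissions of 1 tumor, the log2 fold change of Abcb1a ran from -1.53 to 1.79 and that of Krt1 from -5.81 to 4.86, positive for both without the jaw tumor of R26P123. Without 29048 and the back tumor, chosen after seeing the data, 4458 genes were called. The causes were not tested. Between extracranial and intracranial extra-CNS tumors, DESeq2 called 490 genes (179 higher and 311 lower), limma on log2(TPM + 0.1) called 2, a fit over the 3 groups called 0, and omissions of 1 tumor gave 0 to 3. No paired analysis was possible because the labels number no replicates and no mouse gave tumors of both sites. Depth limits genes near the floor of 3 counts, where absence in a group is a bound.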
